A study of Mus musculus with 2 samples.

Results

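The miR-29 family was represented by 3 assays, mmu-miR-29a, mmu-miR-29b and mmu-miR-29c, of the 384 rows of the authors' deposited table, 376 of which are miRNA assays. The members were taken by name, and no other assay on the plate carried the number 29, so passenger strands of the family were not analysed here. All the material came from RAW264.7 cells, an established mouse macrophage line, into which a probe was transfected for 24 hours before capture on streptavidin beads. One pull-down used a control probe and 1 used a probe for Stat3 mRNA, which encodes a transcription factor of cytokine signalling. The miRNAs recovered in each were quantified by SYBR green real-time PCR, each pull-down on its own plate of 384 wells. With 1 pull-down per probe there was no replicate and no test between probes was possible.

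The study asked which miRNAs come down with Stat3 mRNA. A miRNA guides an Argonaute protein to mRNAs that pair with its seed, bases 2 to 8 from its 5′ end, and miRNAs that share a seed can share targets. The miR-29 family is best known for lowering the mRNAs of collagens and other matrix proteins, of DNA methyltransferases and of the survival factor Mcl1. It is also studied in immune cells, where it acts on regulators of the interferon response.

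The mature guide strands are shown because the 3 members differ only outside the seed. They were matched by name to the 3p arms in RefSeq (3 of 3 members, GRCm38.p6), the older mouse names on the plate being those of the guide strands. Capitals mark the seed.

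mmu-miR-29a: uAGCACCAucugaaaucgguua
mmu-miR-29b: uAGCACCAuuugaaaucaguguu
mmu-miR-29c: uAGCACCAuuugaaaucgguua

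Of 1679 mature mouse names in that table, only these 3 carry AGCACCA at bases 2 to 8 (0.179%). Counted from the 5′ end without gaps, miR-29a differs from miR-29c by a single substitution, C10U. miR-29b shares its first 17 bases with miR-29c, differs by A18G, G21U and U22A, and is 1 base longer, at 23 against 22. G and C make up 40.9% of miR-29a, 36.4% of miR-29c and 34.8% of miR-29b, against a median of 52.2% over all mature names, so all 3 are poor in G and C. With a single base between miR-29a and miR-29c, their assays could share signal, which was not tested.

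The hairpins show which genes each assay reads, with the guide strand in capitals (RefSeq, GRCm38.p6). Mir29a lies at chr6:31062660-31062747 and Mir29b-1 at chr6:31063023-31063093, both on the minus strand and 275 bases apart, and no other gene in the RefSeq table overlaps either. Mir29b-2 lies at chr1:195037040-195037120 and Mir29c at chr1:195037547-195037634, both on the plus strand, 426 bases apart and inside the long noncoding RNA gene A330023F24Rik. Whether they fall in its exons or introns was not determined.

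Mir29a: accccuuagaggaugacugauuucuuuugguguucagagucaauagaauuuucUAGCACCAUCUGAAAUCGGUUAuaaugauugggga
Mir29b-1: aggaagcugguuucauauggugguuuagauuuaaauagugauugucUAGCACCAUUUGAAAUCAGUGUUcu
Mir29b-2: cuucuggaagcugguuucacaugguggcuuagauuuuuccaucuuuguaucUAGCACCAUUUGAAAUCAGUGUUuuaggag
Mir29c: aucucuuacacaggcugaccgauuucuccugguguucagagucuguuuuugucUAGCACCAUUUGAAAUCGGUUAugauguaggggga

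The miR-29b guide strand is identical at both loci, so its assay sums a product of the chromosome 6 cluster, which also holds miR-29a, and one of the chromosome 1 cluster, which also holds miR-29c. The miR-29a and miR-29c assays each read 1 locus.

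All 3 members were found in both pull-downs, and all were read at late cycles. Levels are threshold cycles (Ct), the PCR cycle at which fluorescence crosses a set threshold. The more template a well holds, the earlier that cycle, and a shift of 1 cycle is a 2-fold change where every cycle doubles the product. Assays can differ in efficiency, so an order of Ct between members is not an order of abundance. An assay was called measured below 35 cycles, the limit recovered from the authors' deposited ratios. On the control plate 121 of 384 wells lay below it, on the Stat3 plate 132, and 100 miRNA assays lay below it on both, the 3 members and 97 others.

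The control probe gave miR-29a (well G14) at cycle 33.44 and the Stat3 probe at cycle 32.26. For miR-29c (well E16) the values were 34.17 with control and 33.77 with Stat3. For miR-29b (well M12) they were 34.02 with control and 34.60 with Stat3. In raw cycles, miR-29a and miR-29c thus came earlier with the Stat3 probe and miR-29b came later. None of the 3 wells carried an instrument warning, and each matched 1 row of the deposited table alone.

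**Figure D1:**
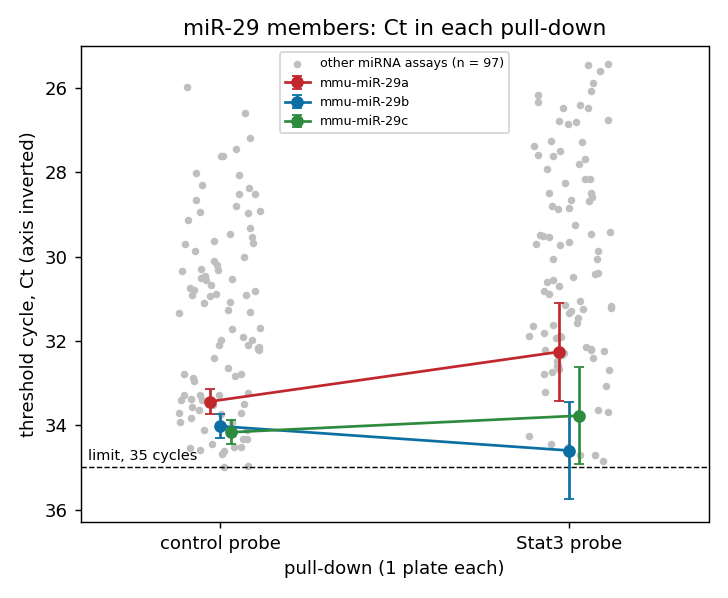
Ct (cycles, inverted axis) of the 3 miR-29 members in the control and Stat3 pull-downs, with bars of 1 SD of the 3 UniSp3 calibrator wells on that plate (0.29 and 1.16 cycles) and the 97 other miRNA assays measured in both as grey points. The members lie at the late end of both plates, and the line of miR-29b falls where those of miR-29a and miR-29c rise.

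Most other miRNAs were read at earlier cycles. The 97 others had median Ct values of 31.68 (control) and 30.49 (Stat3). Of them, 73 came before miR-29a in the control pull-down and 75 did in the Stat3 pull-down. For miR-29c these counts were 86 and 90, and for miR-29b 83 and 94, so only 3 of the 97 others came later than miR-29b with the Stat3 probe. miR-29b was 0.40 cycles from the limit of 35 there, miR-29c 1.23 cycles and miR-29a 2.74 cycles.

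On the control plate the order by Ct was miR-29a, miR-29b, miR-29c, and on the Stat3 plate miR-29a, miR-29c, miR-29b. The only measured error on the plates comes from 3 wells of UniSp3, a calibrator whose template is supplied in the well, which covers the PCR and the well but not the pull-down. Its Ct had an SD of 0.29 cycles in the control pull-down's plate and 1.16 in the other (n = 3 wells). From these, a step between 2 wells would have an SD of 0.41 cycles with control and 1.64 with Stat3. The step of 0.14 cycles between miR-29b and miR-29c on the control plate lay within that spread, as did the step of 0.83 cycles between miR-29c and miR-29b on the Stat3 plate. The step from miR-29a to the next member was 0.58 cycles with control, above 1 such SD, and 1.51 with Stat3, below it. Neighbours in the order on the Stat3 plate thus did not differ beyond the spread of all 3 calibrator wells. That spread comes mainly from the well in row B, at 23.67 with Stat3, against 21.48 in row C and 21.95 in row E. Rows C and E belong to the same alternate rows of the plate as the members, and row B to the others. The wells of rows C and E lay closer together than either step on the Stat3 plate, but 2 wells are too few for a spread. The calibrator wells were read between cycles 21.18 and 23.67, far earlier than the members, so its spread may not be theirs, and the spread of late wells was not measured.

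The ratio of Stat3 over control probe is given on the scale of the authors' deposited table, whose values equal 2 to the power of 0.7 plus control Ct minus Stat3 Ct. On that scale miR-29a was 3.67-fold higher, miR-29c 2.13-fold higher and miR-29b 1.09-fold, and their median was 2.13-fold. At a limit of 2-fold, 2 of the 3 members were higher and 0 lower. Over all 100 miRNA assays, 73.0% passed that limit upward and 2.00% downward, so the members' count is near the background of the plate. Without the offset of 0.7 cycles miR-29a was at 2.26-fold, miR-29c at 1.31-fold and miR-29b at 0.67-fold, and 1 of 3 members was at least 2-fold higher, against 56.0% of all miRNA assays.

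**Figure D2:**
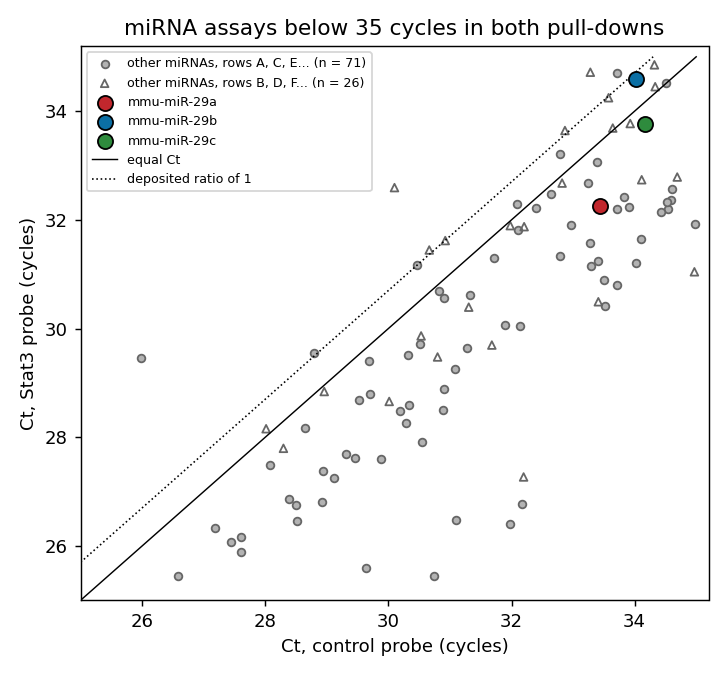
Ct with the Stat3 probe against Ct with the control probe (cycles) for the 100 miRNA assays below 35 cycles in both, with the 3 miR-29 members coloured and the others marked by plate row set. miR-29a and miR-29c lie below the line of equal Ct and miR-29b lies above it, at 34.02 and 34.60 cycles, near the line for a deposited ratio of 1.

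Set against the other miRNAs, all 3 members were below the median, miR-29a slightly and miR-29c and miR-29b further. The 97 others had a median ratio of 4.30-fold, with quartiles of 1.97-fold and 6.97-fold. miR-29a was near the middle, with 44 of them lower and 53 higher. miR-29c had 29 lower and 68 higher, and miR-29b had 10 lower and 87 higher. Divided by the median of all 100 assays, miR-29a was at 0.87, miR-29c at 0.51 and miR-29b at 0.26. In that scale 1 of the 3 members, miR-29b, was at least 2-fold lower, against 30.0% of all miRNA assays.

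All 3 members sit in the odd-numbered rows of the plate (A, C, E, G, I, K, M and O), whose ratios exceeded those of the even-numbered rows. The 71 other miRNA assays of those rows had a median of 5.17-fold and the 26 of the even-numbered rows a median of 1.80-fold. Among the 71, 26 were lower than miR-29a, 14 lower than miR-29c and 4 lower than miR-29b. Relative to the median of all assays in those rows, 5.01-fold, miR-29b and miR-29c were at least 2-fold lower, 2 of 3 members against 22.0% of all miRNA assays taken in their own rows. In their own rows of the plate, miR-29a stood against a median of 7.22-fold in row G (11 others), miR-29c against 4.30-fold in row E (9 others) and miR-29b against 2.26-fold in row M (11 others). None of the 9 others in row E was lower than miR-29c, 3 of the 11 in row G were lower than miR-29a, and 1 of the 11 in row M was lower than miR-29b. The part of plate position in these ratios was not tested.

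The lateness of the wells bounds what could be measured. With the Stat3 well just at 35 cycles, the ratio would have been 0.55 for miR-29a, 0.82 for miR-29b and 0.91 for miR-29c. A 2-fold lower ratio on the deposited scale therefore could not have been measured for any member at its control Ct, and the count of 0 lower members follows from the limit. At the mean Ct of miR-29b, 34.31, any assay below 35 cycles on both plates has a ratio between 0.62-fold and 4.23-fold. That upper bound lies below the 5.01-fold median of the odd-numbered rows and the 4.30-fold median of the 97 others. At 33.97, the mean Ct of miR-29c, the bounds are 0.39-fold and 6.79-fold, and at 32.85, that of miR-29a, 0.082-fold and 32.1-fold. A mean Ct includes the Stat3 Ct, so these are not bounds at a member's control Ct, where the limit sets a lowest ratio and no highest one. The 21 others of the odd-numbered rows with a control Ct of 33 or above had a median of 7.22-fold and a lower quartile of 4.65-fold. All 3 members lay below that quartile. The part of the limit in their standing was not tested.

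**Figure D3:**
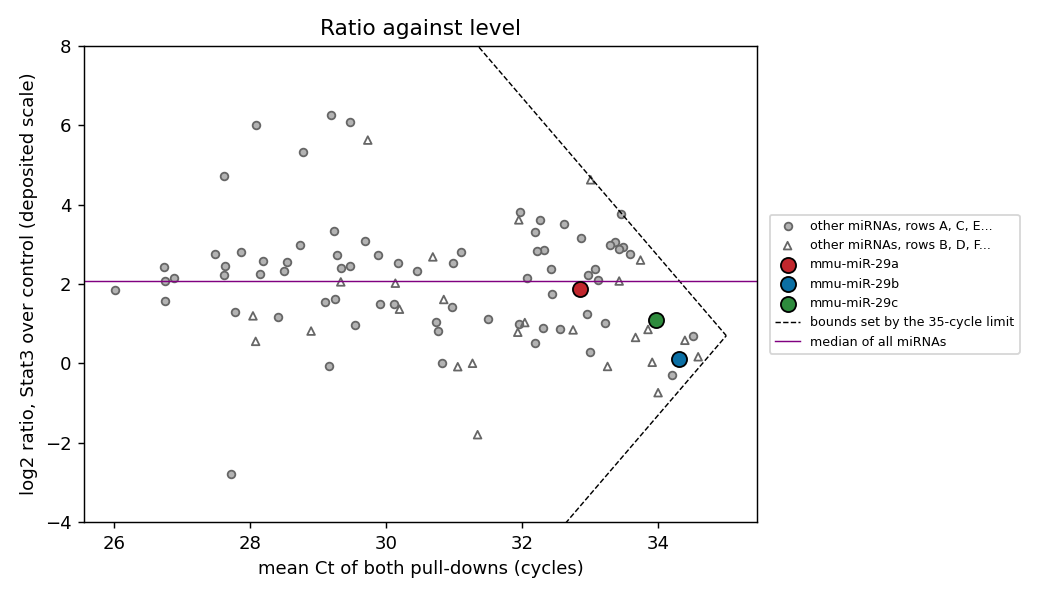
Log2 ratio of Stat3 over control probe on the deposited scale against the mean Ct of both pull-downs (cycles) for 100 miRNA assays, with the 3 miR-29 members coloured and dashed lines for the bounds that the 35-cycle limit sets. miR-29a (1.88), miR-29c (1.09) and miR-29b (0.12) lie below the median of all assays (2.08), and the bounds close in on miR-29c and miR-29b.

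Assays of like level gave another comparison, with level taken as mean Ct, which includes the Stat3 Ct. The 15 other assays with a mean Ct within 1 cycle of miR-29b had a median of 1.81-fold, and 3 of them were lower than it. The 22 within 1 cycle of miR-29c had a median of 2.93-fold with 11 lower, which places miR-29c in the middle of that window. The 35 within 1 cycle of miR-29a had a median of 5.17-fold with 13 lower. Each member was thus below the median of its window, at 0.71 of it for miR-29a, 0.73 for miR-29c and 0.60 for miR-29b. All 3 differences were smaller than the calibrator SD of 0.97 cycles, but these windows mix both row sets. With the odd-numbered rows alone, the window medians were 5.94-fold for miR-29a (26 assays, 8 lower) and 5.89-fold for miR-29c (12 assays, 4 lower). For miR-29b the median was 7.44-fold (7 assays, 1 lower). Against these, miR-29b and miR-29c were more than 2-fold lower, beyond that SD. For miR-29b and miR-29c the window still holds earlier assays that the limit lets run above the bounds at the members' mean Ct. Relative to the medians of the mixed windows the log2 ratios were -0.46 for miR-29c, -0.49 for miR-29a and -0.73 for miR-29b. On that scale the members lay close together and miR-29c passed miR-29a. Relative to the odd-row medians they did not lie close together, and the order stayed miR-29a, miR-29c, miR-29b.

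The members' ratios differed among themselves, by amounts that no common offset between the plates can alter. The ratio of miR-29a was 3.37-fold that of miR-29b, a difference of 1.75 on the log2 scale. Between miR-29c and miR-29b the difference was 0.97, and between miR-29a and miR-29c it was 0.78. The 3 calibrator wells differed between plates (control minus Stat3) by 0.02 cycles in row C, -0.76 in row E and -1.91 in row B, with a mean of -0.89 ± 0.97 (SD, n = 3 wells). From that SD, a difference between 2 wells' ratios would itself have an SD of 1.38. The difference of 1.75 between miR-29a and miR-29b lay within 2 such SD and below the calibrator range of 1.93 cycles, and the other 2 differences were within 1 SD. Taken relative to assays of like mean Ct in both row sets, the difference between miR-29a and miR-29b was 0.24. In the odd-numbered rows alone the like-level median was higher for miR-29b (7.44-fold) than for miR-29a (5.94-fold), so the difference did not shrink. The calibrator SD and range both include the well of row B, which lies in the other row set. The pair of calibrator wells in rows C and E, the row set of the members, differed by 0.78 cycles, as much as miR-29a and miR-29c did. That gap was smaller than the 1.75 between miR-29a and miR-29b and the 0.97 between miR-29c and miR-29b. With 2 wells it gives no reliable spread.

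Another gauge, chosen after its values were seen, is the set of 4 miRNAs measured in both pull-downs under a mouse and a rat name, where a name without an arm was paired with one that gives it. Their log2 ratios differed by 0.21 for miR-146b, 0.34 for miR-223, 0.88 for miR-200c and 1.92 for miR-338, each pair being spread over both row sets. The mouse-named miR-200c assay, with Ct values of 33.71 and 34.70, and the rat-named one, with 34.33 and 34.45, lie at the level of miR-29b. Their deposited-scale ratios were 0.81-fold and 1.50-fold, on either side of the 1.09-fold of miR-29b. The difference of the miR-338 pair, whose control Ct values were 34.50 and 34.69, exceeded the 1.75 between miR-29a and miR-29b. Whether the assays of a pair target the same sequence was not checked.

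The miR-29a and miR-29b guide strands, products of the chromosome 6 cluster, had ratios further apart than those of miR-29c and miR-29b, products of the chromosome 1 cluster. Since the miR-29b assay reads both clusters, these differences do not separate the clusters. The member with the highest ratio, miR-29a, is the one that carries C at base 10, and miR-29b and miR-29c, alike up to base 17, had the lower ratios. With 3 members this is a description of these wells.

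Over both pull-downs, the assays most like each member were taken as the 3 with the smallest Euclidean distance in control and Stat3 Ct, out of 99 candidates. For miR-29a these were miR-425 at 0.29 cycles, miR-186 at 0.41 and miR-195, of the miR-15/16 family, at 0.47, with ratios of 4.65-fold, 4.30-fold and 2.38-fold. For miR-29c they were miR-301b at 0.24 cycles, miR-330 at 0.53 and the rat-named miR-200c assay at 0.70, with ratios of 1.81-fold, 1.58-fold and 1.50-fold. For miR-29b they were the mouse-named and rat-named miR-200c assays at 0.33 and 0.35 cycles and miR-497, also of the miR-15/16 family, at 0.39 with a ratio of 1.12-fold. With 2 pull-downs such likeness rests on 2 values per assay. miR-200c is known as an epithelial miRNA. The other epithelial miRNA of the marker list, miR-141, was not below 35 cycles in either pull-down.

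By median over the members measured in both pull-downs, 3 other seed families of the plate were read at earlier cycles. The members measured in both were 8 of 9 for let-7, 3 of 5 for miR-30 and 6 of 6 for miR-15/16. The remaining let-7 and miR-30 members do not enter the medians, so the whole families were not compared. With the control probe, the median Ct was 30.10 over 8 let-7 members measured in both, 31.08 over 3 miR-30 members and 31.02 over 6 miR-15/16 members, against 34.02 for miR-29. On the log2 scale the miR-29 ratios spanned 1.75, those of miR-30 1.38, of let-7 3.13 and of miR-15/16 5.83. The miR-29 span thus lay between those of miR-30 and let-7. A span tends to widen with the number of assays, here 3 for miR-29 and miR-30, 8 for let-7 and 6 for miR-15/16, so this order is not a family trait. No test of these differences was possible.

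In the authors' deposited table, sorted from the highest value, miR-29a stood at position 71, miR-29c at 92 and miR-29b at 362 of 384. The 238 assays that did not come below 35 cycles with either probe are all listed at 1.625, 2 to the power of the offset. All 238 therefore rank above miR-29b, although miR-29b was measured with both probes.

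The direction of the family turned on the scale chosen. Scaled to the 3 UniSp3 wells, the log2 ratios were 2.06 for miR-29a, 1.28 for miR-29c and 0.31 for miR-29b, and 2 of 3 members were at least 2-fold higher, against 81.0% of all miRNA assays. Scaled to 4 reference miRNAs (miR-16, miR-103, miR-423-3p and miR-191) they were -0.69, -1.48 and -2.45, so all members were lower on that scale. For miR-29a this direction depends on the references taken, since with miR-423-3p left out miR-29a was at 0.33. On the remaining 3 references miR-29c, at -0.46, and miR-29b, at -1.43, stayed lower. The deposited-scale ratios were 49.5-fold for miR-423-3p, 4.22-fold for miR-16, 4.06-fold for miR-191 and 1.47-fold for miR-103, against 3.67-fold for miR-29a. Of these references only miR-16, in row E, sits in the odd-numbered rows of the members. The order miR-29a, miR-29c, miR-29b is fixed by construction under any such common scale.

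**Figure D4:**
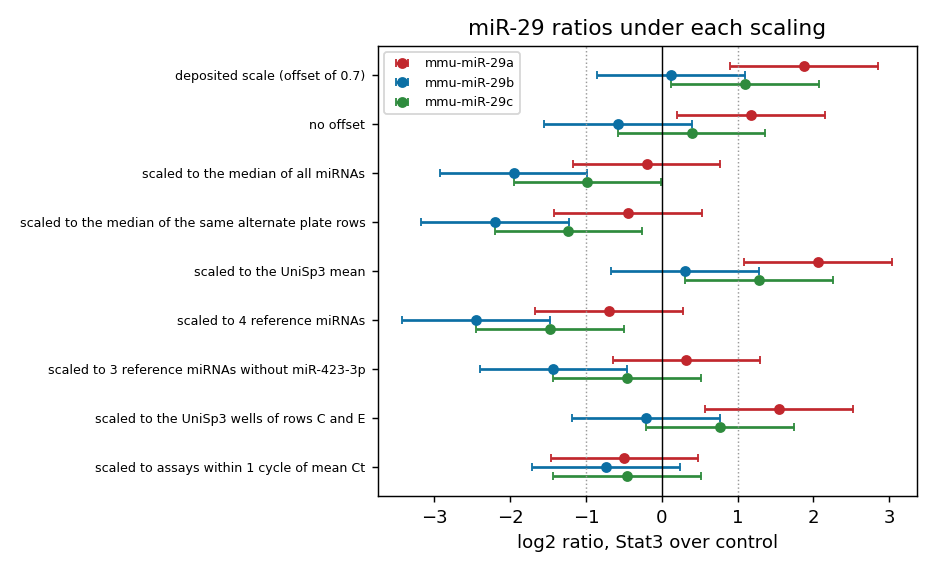
Log2 ratio of Stat3 over control probe for the 3 miR-29 members under 9 scalings, with bars of 1 SD of the UniSp3 calibrator difference (0.97 cycles, n = 3 wells) and dotted lines at 2-fold. miR-29a runs from 2.06 with the UniSp3 wells to -0.69 with 4 reference miRNAs, and miR-29b from 0.31 to -2.45.

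As a check of the cell type, 5 of 6 macrophage and myeloid miRNAs on the plate (miR-223, miR-142-3p, miR-155, miR-146a and miR-21, but not miR-142-5p) were below 35 cycles in both pull-downs, at control Ct values of 27.19 to 32.09. Of 13 markers of other cell types 4 were (miR-9, miR-200c, miR-126-3p and miR-451), at 30.47 to 33.71. miR-122 and miR-124 were below 35 cycles with the control probe alone, and the mouse-named assays of the other 7 with neither. Among those 7, fibroblast miR-214 had a rat-named assay below 35 cycles with both probes, at 33.58 and 34.25, and miR-143 had one below it with the Stat3 probe alone, at 34.98. The part of RNA from other cells in the miR-29 wells was not tested.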

How the data were processed

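The members and lists were chosen with earlier results of these data known. The deposited plate values are raw threshold cycles with no normalization, exported by SDS 2.3 with a manual threshold of 0.15 per the file headers. The authors' deposited table holds 1 ratio per named assay. Its header calls it a log fold change, but with both sets sorted all 384 values equalled 2 to the power of 0.7 plus control Ct minus Stat3 Ct, each Ct capped at 35, within 0.0005. The offset and cap are stated in no header or label. A name was tied to a well whose ratio matched within 0.0006: of 146 informative rows 142 matched 1 well, among them all members, and 4 matched 2. miR-451 was separated from the UniSp6 spike-in by taking the lower Ct as the spike-in. The matching was checked on simulated plates. Named assays were the members, any assay numbered 29, the 3 nearest in Ct, fixed lists and controls. Ratios used no pseudocount. Tools were Python 3.11.15, numpy 2.4.6 and pandas 2.3.3. Alternatives were other scalings and limits.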

Additional observations from a re-analysis of the deposited data

How the results depend on the processing

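The median log2 ratio of the family, 1.09 on the deposited scale, kept its sign without the offset and with the UniSp3 wells. By construction it could not change with no limit on Ct, since all members were below 35 cycles on both plates. Nor could its sign change with each member left out in turn, since all 3 log2 ratios were positive. The median turned to -0.98 against the median of all miRNAs, -1.23 against that of the same plate rows and -1.48 against 4 reference miRNAs. In 3 scalings chosen after the data were seen, it was -0.46 with 3 references (without miR-423-3p), -0.49 against assays of like level and 0.77 with the UniSp3 wells of rows C and E. The members at least 2-fold higher, 2 on the deposited scale, numbered 1 without the offset and 1 with the UniSp3 wells of rows C and E, and 0 in the 5 scalings to other miRNAs. In these 5, miR-29a was at -0.20 (all miRNAs), -0.45 (same rows), -0.69 (4 references), 0.33 (3 references) and -0.49 (like level). miR-29c was at -0.98, -1.23, -1.48, -0.46 and -0.46 in the same order. The scalings differ by construction in the assays taken as unchanged. miR-29b was at -1.95, -2.20, -2.45, -1.43 and -0.73. Scaling to plate rows cannot alter the differences between members, which share 1 row set. Scaling to assays of like level can: miR-29a minus miR-29b went from 1.75 to 0.24, miR-29c minus miR-29b from 0.97 to 0.27 and miR-29a minus miR-29c from 0.78 to -0.033. That scaling takes level as mean Ct and mixes both row sets. With like-level assays of the odd-numbered rows alone, miR-29a minus miR-29b did not shrink. With a limit of 33 cycles miR-29b and miR-29c had no value, and the log2 ratio of miR-29a was 1.44 with its control well at the limit, so no median, count or difference could be given. No paired analysis was possible because each probe had 1 pull-down.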
